A study of Mus musculus with 29 samples.

Results

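The genes described here are the 7 that encode subunits of the NMDA receptor, *Grin1*, *Grin2a*, *Grin2b*, *Grin2c*, *Grin2d*, *Grin3a* and *Grin3b*, out of 24062 genes listed in the RNA-seq table. They were chosen by name as 1 gene family, at a time when their RNA levels in these libraries were known. Their RNA levels and differences are therefore given as a description, with no p-value. For the 7 genes, p-values are given only for chromatin accessibility, which was measured in other libraries.

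RNA was sequenced from 15 libraries, 3 for each of 5 populations. These were the bipolar cells as a whole (pan-BC), their ON class (ON-BC), their OFF class (OFF-BC), rods, and photoreceptors of mice that lack *Nrl*, which serve as a model of blue cones and are called blue cones here. Pan-BC for RNA came from Otx2-GFP+/- mice, which carry GFP in the *Otx2* gene, aged 44 to 47 days after birth. ON-BC and OFF-BC for RNA came from mice that were Otx2-GFP+/-; Grm6-YFP+/+ at day 42 to 48, with YFP driven by the promoter of *Grm6*, a gene of ON bipolar cells, and OFF-BC were sorted a second time. Rods (Nrl-eGFP) and blue cones (Nrl-eGFP;NrlKO) were taken at day 56 and re-analysed by the authors from an earlier experiment. Accessibility was measured by ATAC-seq, in which a transposase cuts open chromatin, in 2 libraries each of the same populations and of green cones (Opn1mw-GFP, day 56), with bipolar mice of day 42 to 46 that were all labelled Otx2-GFP+/-; Grm6-YFP+/+. Every bipolar cell thus carried 1 altered *Otx2* allele, and bipolar cells and photoreceptors differed in age, mouse line and experiment, which cannot be told apart from cell class. The labels name no treatment.

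NMDA receptors are ion channels opened by glutamate together with a co-agonist, glycine or D-serine. Each channel needs GluN1, encoded by *Grin1*, which binds the co-agonist, and usually pairs it with GluN2 subunits (*Grin2a* to *Grin2d*), which bind glutamate and set how the channel conducts, closes and is blocked by magnesium. GluN3 subunits (*Grin3a* and *Grin3b*) bind glycine and lower calcium entry. In the retina these receptors are best known from ganglion and amacrine cells, whereas bipolar cells sense the glutamate of photoreceptors mainly through mGluR6 in ON cells and AMPA or kainate receptors in OFF cells.

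Sequence is shown for the promoters of *Grin1* and *Grin2d* and for regions named in the results on accessibility. The *Grin2d* promoter itself had no peak in any library. The first pair are the 250 bases before the start site of *Grin1* (chr2:25319188-25319437, minus strand), which overlap the region that was open in bipolar cells, and of *Grin2d* (chr7:45866682-45866931, minus strand), the gene that was highest in rods. They are from RefSeq, build GRCm38.p6, in which 4 of the 7 genes had a promoter entry (*Grin1*, *Grin2c*, *Grin2d* and *Grin3b*). The other sequences are regions on the plus strand of the same build. They are the region of *Grin3a* with the largest difference between pan-BC and rods (chr4:50286700-50286900, between genes), the 1 region that was called between ON-BC and OFF-BC (chr16:9673522-9673722, in an intron of *Grin2a*), and the region that was open in bipolar cells and cones but nearly closed in rods (chr6:136130572-136130772, in an intron of *Grin2b*). Capitals mark matches to short words searched on both strands, which here were all matches to CANNTG, the E-box bound by bHLH factors.
Grin1 promoter: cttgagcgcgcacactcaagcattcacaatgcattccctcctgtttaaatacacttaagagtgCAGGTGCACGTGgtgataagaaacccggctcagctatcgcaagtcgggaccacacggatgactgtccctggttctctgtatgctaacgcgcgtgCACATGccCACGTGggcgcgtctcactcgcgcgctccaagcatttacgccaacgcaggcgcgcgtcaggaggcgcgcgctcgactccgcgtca
Grin2d promoter: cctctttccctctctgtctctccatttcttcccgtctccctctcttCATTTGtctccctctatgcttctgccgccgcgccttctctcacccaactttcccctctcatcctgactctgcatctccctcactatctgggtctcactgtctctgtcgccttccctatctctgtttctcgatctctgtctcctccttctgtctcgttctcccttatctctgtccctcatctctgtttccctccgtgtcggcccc
Grin3a region: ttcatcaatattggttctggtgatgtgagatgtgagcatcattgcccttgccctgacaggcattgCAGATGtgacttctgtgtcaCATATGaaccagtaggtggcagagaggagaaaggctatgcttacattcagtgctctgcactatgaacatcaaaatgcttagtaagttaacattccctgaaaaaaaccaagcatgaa
Grin2a region: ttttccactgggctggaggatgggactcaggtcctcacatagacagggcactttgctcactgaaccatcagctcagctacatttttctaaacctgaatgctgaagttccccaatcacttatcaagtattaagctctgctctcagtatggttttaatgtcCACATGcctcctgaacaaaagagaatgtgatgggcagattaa
Grin2b region: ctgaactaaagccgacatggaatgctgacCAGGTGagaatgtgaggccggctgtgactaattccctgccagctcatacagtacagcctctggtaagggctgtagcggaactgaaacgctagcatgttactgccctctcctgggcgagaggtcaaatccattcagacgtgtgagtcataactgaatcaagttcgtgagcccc

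Counted reads ran from 12329548 to 26266746 per RNA-seq library and from 4176776 to 12345845 per ATAC-seq library. Values are normalized counts, that is, counts that the authors divided by 1 size factor per library, and 3 reads in an RNA-seq library were worth 2.22 to 3.67 of them. The summed normalized count of 8 bipolar markers was 106376 to 148689 in the bipolar populations, 26135 to 30470 in blue cones and 499 to 1061 in rods. Markers of other retinal cells that have NMDA receptors were present too. The 7 ganglion cell markers summed to 367 to 387 for pan-BC, 269 to 322 for ON-BC and 62.6 to 119 for OFF-BC, where *Slc17a6* and *Pou4f2* were listed at 0, and the 8 amacrine markers summed to 564 to 612, 328 to 485 and 923 to 1113. Among the amacrine markers, *Slc6a9* (462 to 638 in OFF-BC), *Tfap2b* (157 to 258) and *Pax6* (173 to 190) were higher in OFF-BC than in pan-BC. *Gad1* was lower (26.4 to 29.1 against 55.1 to 71.3), and *Gad2*, *Tfap2a*, *Slc32a1* and *Chat* overlapped. The part of such cells in the levels of the subunit genes was not tested. A pair of libraries stood apart. ON-BC replicate 3 held RNA of lens crystallins (*Cryaa* 607 and *Crybb2* 321, against at most 1.96 and 1.03 in the other ON-BC libraries), and OFF-BC replicate 3 held more cone and ON bipolar RNA (*Opn1sw* 55813 and *Grm6* 593, against at most 4477 and 145 in the other OFF-BC libraries). In sorted bulk samples, fewer cells with a transcript and less of it per cell cannot be told apart.

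*Grin1*, the gene of the subunit that every NMDA receptor needs, was found in all 3 bipolar populations at a similar level. It lies at chr2:25291177-25319187 (minus strand, RefSeq annotation of GRCm38, as for the positions of the other genes). Its normalized count was 459, 662 and 513 for pan-BC, 459, 408 and 484 for ON-BC, and 445, 435 and 377 for OFF-BC. Blue cones had 54.2, 40.2 and 74.8, and rods had 2.91, 5.12 and 1.08, from 9 reads in all. The bipolar libraries overlapped from one population to the next, while every bipolar library lay above every blue cone library and every blue cone library above every rod library. The mean in pan-BC (545 ± 105, SD, n = 3) was 9.66 times that in blue cones (56.4 ± 17.4). Against rods, the ratio of reads over summed size factors was 177, with a 95% Poisson interval of 93.5 to 388 that covers only the counting of the 9 rod reads. Between ON-BC and OFF-BC the log2 difference was 0.10 (standard error 0.32). The antisense gene *Grin1os* shares 1269 exonic bases with *Grin1*, and whether the counting used strand is not given in the sources used here, so reads of the pair cannot be told apart in that stretch. *Grin1os* itself had at most 8.56 normalized counts.

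*Grin2b*, the gene of the GluN2B subunit, had the most reads of the GluN2 genes in every bipolar library, and its ON-BC libraries varied more than those of any other member. Per kb of exon, *Grin2d* was slightly above it in 1 library, ON-BC replicate 1 (0.955% against 0.846% of the 7 genes). It lies at chr6:135713221-136173545 (minus strand). The pan-BC libraries had 2359, 2430 and 2106 normalized counts. The ON-BC libraries had 40.2, 29.4 and 1049.6, and the OFF-BC libraries had 1997, 682 and 666. No library of either subclass reached the lowest pan-BC value, whereas the subclasses overlapped, because ON-BC replicate 3 lay above OFF-BC replicates 2 and 3. The highest ON-BC library of *Grin2b* had 35.7 times the lowest, against 1.15 times among pan-BC and 3.0 times among OFF-BC. Photoreceptors had almost none. All 3 blue cone libraries were listed at 0, so that the pan-BC mean of 2298 ± 171 (SD, n = 3) was at least 1021-fold higher than a floor of 3 reads per library. Rods had 1 read in all, and the ratio of pan-BC to rods, as reads over summed size factors, was 6739 with a 95% Poisson interval on that read of 1209.6 to 266188.

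Between ON-BC and OFF-BC the log2 difference of *Grin2b* was -3.14 (standard error 0.90) with all libraries. It was -4.78 without ON-BC replicate 3, and -4.25 without both ON-BC replicate 3 and OFF-BC replicate 1, a choice made after the values were seen. The OFF-BC mean was 2.99 times the ON-BC mean, and 19.4 times when these 2 libraries were left out. Pan-BC libraries also differed from the sorted subclasses in genotype, since their mice had no Grm6-YFP transgene, and in *Lrrtm1*, a marker of a bipolar type that both subclass gates leave out, which ranged from 350 to 547 normalized counts in pan-BC, 79.5 to 122 in ON-BC and 56.5 to 116 in OFF-BC. The part of either in the *Grin2b* levels was not tested.

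Among genes with at least 100 reads in some ON-BC or OFF-BC library, the spread of *Grin2b* was shared by 2 within 1 Mb of it on chromosome 6. *Emp1*, which encodes a membrane protein of epithelial cells and lies 330 kb from *Grin2b*, had 545, 547 and 448 normalized counts for pan-BC, 2.06, 0.980 and 254 for ON-BC, and 434, 4.81 and 3.31 for OFF-BC. *Hebp1*, a heme-binding protein gene 545 kb away, had 374, 416 and 229 for pan-BC, 14.4, 11.8 and 125 for ON-BC, and 472, 85.3 and 104 for OFF-BC. In both, as in *Grin2b*, ON-BC replicate 3 and OFF-BC replicate 1 were the high libraries. *Gsg1*, which lies between *Hebp1* and *Emp1*, did not share this, with ON-BC replicate 3 at 1.41 times the mean of the other ON-BC libraries and OFF-BC replicate 1 at 1.32 times the mean of the other OFF-BC libraries, and neither did *Atf7ip* (1.15 and 1.06 times) on the other side. Also on that side, *BC049715* (3.25 and 5.26 times), *Smco3* (1.81 and 3.88 times) and *Plbd1* (2.06 and 1.56 times) had the same high libraries. Their ON-BC and OFF-BC values were low, at most 40.0. Among 10457 genes with at least 100 reads in some ON-BC or OFF-BC library, 9 (0.0861%) were at least 2 times higher in ON-BC replicate 3 than in each other ON-BC library and in OFF-BC replicate 1 than in each other OFF-BC library. Of these 9, 4 lay on chromosome 6 (*Hebp1*, *Emp1*, *Grin2b* and *Dera*), and 1 was the crystallin gene *Crybb2*. *Hist2h2bb* and *Rsg1*, also among the 9, had no chromosome assigned. How many of the 10457 genes lie on chromosome 6 was not counted, so nothing is read from the 4. The neighbours and the limit of 2 times were chosen after the values were seen, and a cause was not tested.

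**Figure D1:**
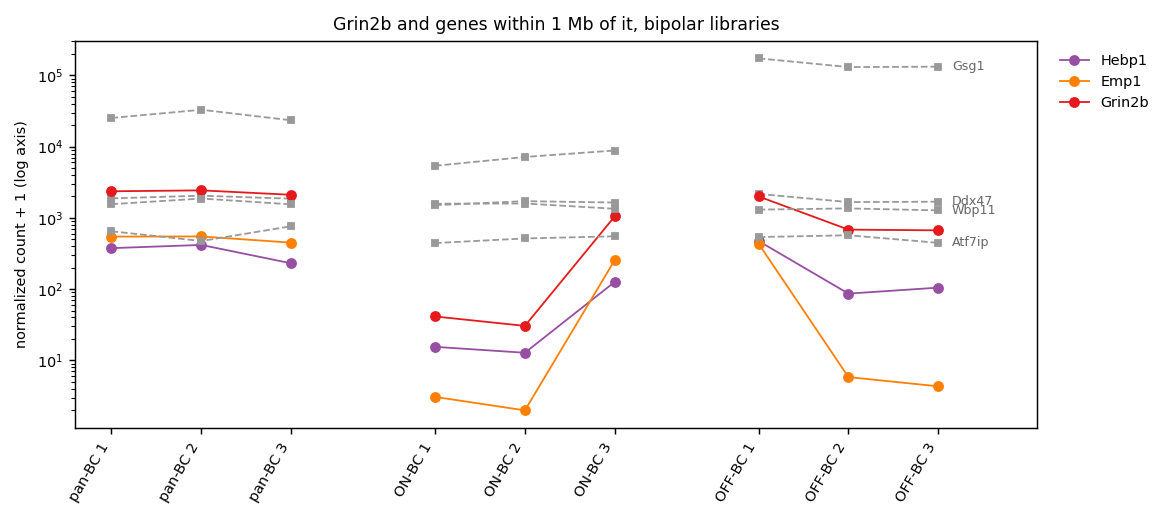
Normalized count plus 1 (log axis) of *Grin2b*, *Hebp1* and *Emp1* (solid, coloured) and of *Ddx47*, *Gsg1*, *Atf7ip* and *Wbp11*, some of the other genes within 1 Mb (dashed, grey), in the 9 bipolar RNA-seq libraries, with lines joining libraries of 1 population only to guide the eye. *BC049715*, *Smco3* and *Plbd1* are not drawn. The coloured genes are high in all pan-BC libraries, in ON-BC replicate 3 and in OFF-BC replicate 1, where *Grin2b* had 1049.6 and 1997, and the grey genes are about level within each population.

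*Grin2d*, the gene of the GluN2D subunit, ran the opposite way and was the GluN2 gene of rods. It lies at chr7:45832483-45866681 (minus strand). Rod libraries had 167, 181 and 183 normalized counts. No other library exceeded 8.41, the value of OFF-BC replicate 2, and the means were 4.02 ± 2.20 for pan-BC, 5.41 ± 2.63 for ON-BC, 5.41 ± 3.82 for OFF-BC and 2.51 ± 1.59 for blue cones (SD, n = 3). Every rod library lay above every other library, and the remaining populations overlapped. The rod mean of 177 ± 8.74 was 44.0 times that in pan-BC and 70.4 times that in blue cones. The log2 difference between rods and blue cones was 5.79 (standard error 0.58).

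The other GluN2 genes gave no level in any population. *Grin2a* (chr16:9567901-9995813, minus strand) was listed at 0 in all 15 libraries, like 5124 of the 24062 genes, which allows up to 3 reads per library. Whether this reflects the cells or the counting at this gene was not tested. *Grin2c* (chr11:115249169-115267243, minus strand) had 1 read in each of 3 libraries, 1 of pan-BC, 1 of OFF-BC and 1 of rods, and none in the other libraries. No fold was taken for either gene.

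*Grin3a*, the gene of the GluN3A subunit, separated ON from OFF bipolar cells. It lies at chr4:49661611-49845769 (minus strand). ON-BC libraries had 592, 635 and 618 normalized counts, and pan-BC libraries had 311, 535 and 525. OFF-BC libraries had 15.6, 6.01 and 55.2. ON-BC lay above pan-BC and pan-BC above OFF-BC with no overlap of libraries, while OFF-BC overlapped blue cones (6.77, 1.52 and 31.1), and blue cones overlapped rods (1.94, 2.05 and 1.08). The ON-BC mean of 615 ± 21.5 was 24.0 times the OFF-BC mean of 25.6 ± 26.1 (SD, n = 3), and the log2 difference was 5.04 (standard error 0.74). The highest OFF-BC value came from replicate 3, the library with more *Grm6*, and the ratio was 56.8 without it. The highest blue cone value came from replicate 3, which also had the most *Grm6* of the blue cone libraries (175, against 68.4 and 130).

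*Grin3b*, which encodes the other GluN3 subunit, was also lower in OFF-BC than in ON-BC, with fewer reads. It lies at chr10:79970724-79977190 (plus strand). Pan-BC had 36.2, 40.4 and 44.0 normalized counts, ON-BC had 38.2, 35.3 and 46.2, and OFF-BC had 17.9, 9.61 and 7.72. ON-BC lay above OFF-BC in every library, by 3.4 times in the mean (39.9 ± 5.64 against 11.7 ± 5.4, SD, n = 3). Blue cones (7.79 ± 4.82) and rods (11.3 ± 2.67) overlapped OFF-BC. *Grin3b* shares 71 of its 3274 exonic bases with *Tmem259*, and reads in that stretch are uncertain.

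**Figure D2:**
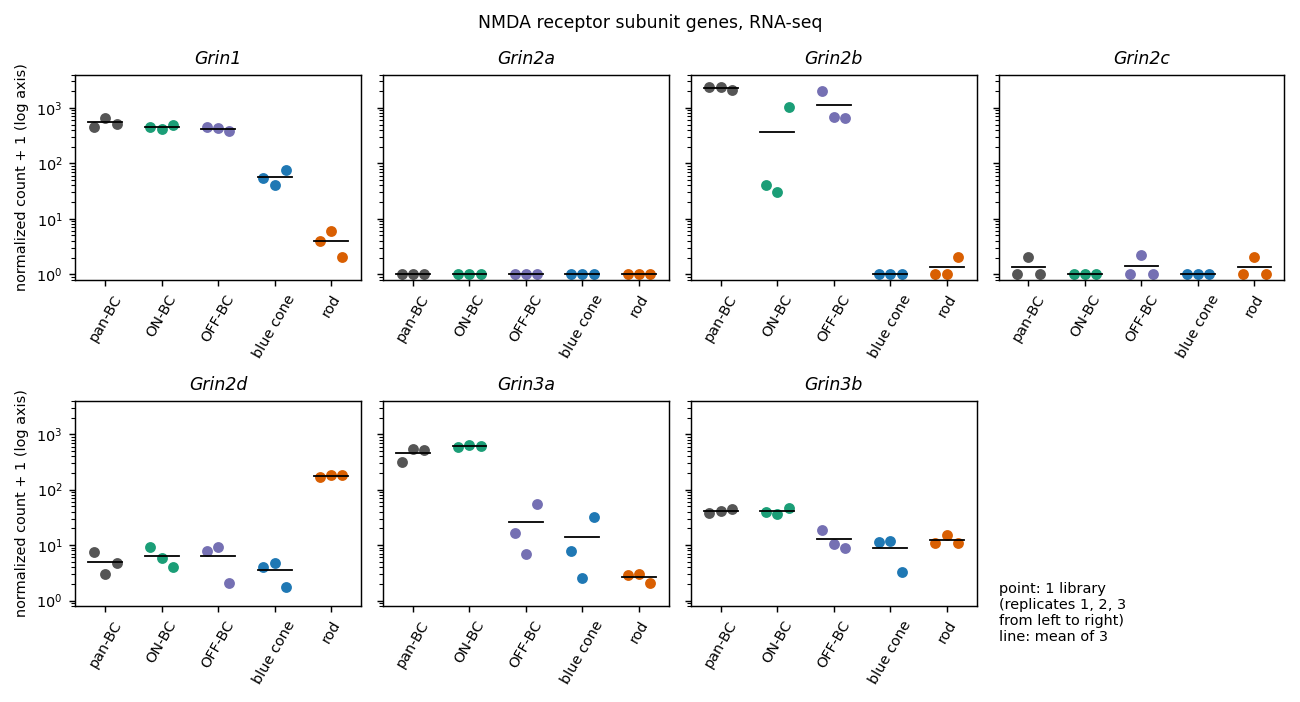
Normalized count plus 1 (log axis) of each NMDA receptor subunit gene in the 15 RNA-seq libraries, by population; points are libraries (replicates 1, 2 and 3 from left to right) and lines are means of 3. *Grin1* is level across bipolar cells, *Grin2b* has 1 high ON-BC library (1049.6), *Grin2d* is high only in rods (167 to 183), and *Grin3a* is high in pan-BC and ON-BC.

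Per kilobase of exon, which allows genes to be set side by side, the subunits made up a different mix in each population. In pan-BC the levels were 125 ± 24.0 for *Grin1*, 95.3 ± 7.07 for *Grin2b* and 59.2 ± 16.4 for *Grin3a* (normalized count per kb, SD, n = 3). In ON-BC, *Grin1* took 44.5% to 53.3% of the sum of the 7 genes per kb and *Grin3a* took 32.1% to 43.6%, while *Grin2b* took 0.846%, 0.646% and 17.5% in replicates 1 to 3. In OFF-BC, *Grin1* took 52.6% to 74.5%, *Grin2b* 21.2% to 42.8% and *Grin3a* 0.583% to 5.78%. Thus GluN3 genes exceeded GluN2 genes per kb of exon in every ON-BC library, with *Grin2a* taken at its listed 0. GluN3 was at 0.842 to 0.998 and GluN2 at 0.0250 to 0.399 of *Grin1*. Without division by length, ON-BC replicate 3 went the other way, with 1053 normalized counts for the GluN2 genes against 618 for *Grin3a* and 46.2 for *Grin3b*. Per kb of exon, GluN2 genes exceeded GluN3 genes in every OFF-BC library, with GluN2 at 0.306 to 0.828 and GluN3 at 0.0373 to 0.110 of *Grin1*. In rods, *Grin2d* took 87.3% to 92.4% of a sum of 42.0 to 47.4 per kb, and *Grin1* took 0.549% to 2.47%. In blue cones the sum was 13.5 to 22.0 per kb, of which *Grin1* took 68.1% to 77.8%.

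Among the GluN2 genes alone, with *Grin2a* taken at its listed 0 and per kb of exon, *Grin2b* made up 98.5% to 99.3% in pan-BC and 92.9% to 99.1% in OFF-BC, and *Grin2d* made up 99.5% to 100% in rods. In ON-BC the share of *Grin2b* ran from 47.0% to 98.4%. The exonic length of *Grin2b* is 24123 bases, of which 4449 are coding, so per kb of coding sequence its share in ON-BC was higher, at 81.3% to 99.7%. The cDNA kit and any bias along the transcript affect such shares, and their size was not measured.

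**Figure D3:**
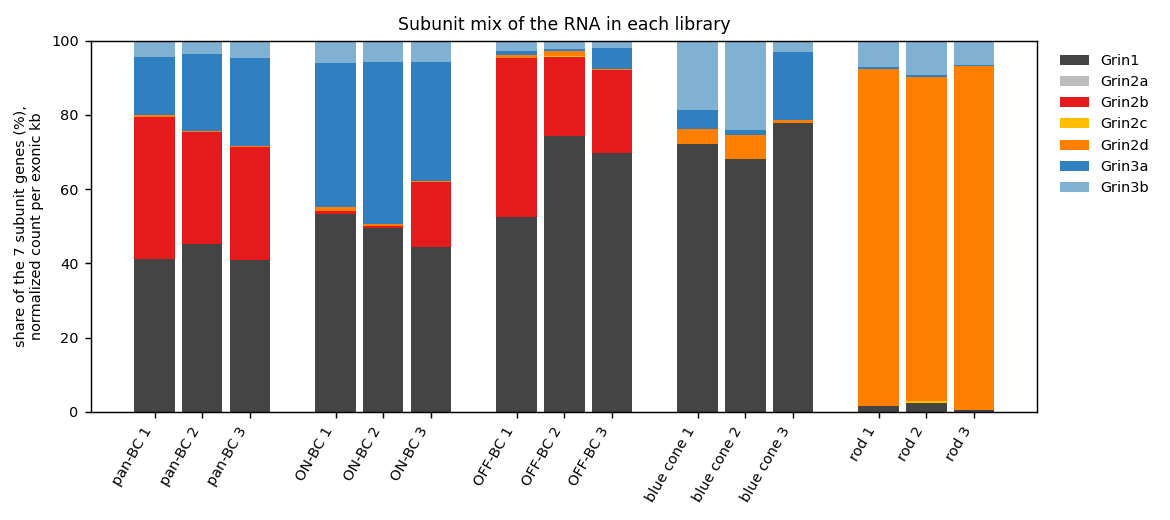
Share of each subunit gene in the sum of the 7 genes, as normalized count per exonic kilobase, in percent, with 1 bar per RNA-seq library. *Grin2d* fills 87.3% to 92.4% of the rod bars, *Grin3a* 32.1% to 43.6% of the ON-BC bars, and *Grin2b* is wide in pan-BC, in OFF-BC and in ON-BC replicate 3 (17.5%).

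Of the 7 genes, 5 passed the filter on low counts and entered a fit across 14024 genes, in which limma's treat set each log2 difference against 1. These calls rest on the values that were known when the genes were chosen, and nothing is read from their number. Between pan-BC and rods, 4 of the 5 were called, where 43.6% of all genes tested were: *Grin2b*, *Grin3a* and *Grin1* were higher in pan-BC (log2 differences 10.81, 7.39 and 7.20) and *Grin2d* was higher in rods (-5.24). Between pan-BC and blue cones, 4 were called against 36.3% of all genes, all higher in pan-BC, with 11.16 for *Grin2b*, 5.70 for *Grin3a*, 3.28 for *Grin1* and 2.44 for *Grin3b*. Between ON-BC and OFF-BC, only *Grin3a* was called against 6.55% of all genes, and 2 genes were called without ON-BC replicate 3, when *Grin2b* joined it. Between rods and blue cones, 2 were called against 15.9%, *Grin2d* higher in rods and *Grin1* higher in blue cones (log2 difference -3.92). The comparisons with pan-BC share their libraries.

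Genes that act with the receptor were taken from a list of 47, of which 42 were tested in the same fit. The list was chosen with earlier results of these data known. Its counts, shares and p-values, here and in the comparisons that follow, are thus given as a description. Between pan-BC and rods, 23 were higher in pan-BC and 3 in rods, or 61.9% called against 43.6% of all genes tested, with a median log2 difference of 1.62 against 0.21 over all genes. The calls lay mostly among the scaffolds of the postsynapse (8 of 14 tested higher in pan-BC, 1 lower), the kinases, phosphatases and other effectors (9 of 12 higher) and the trafficking and auxiliary genes (6 of 9 higher, 1 lower). Of the 7 genes of co-agonist supply tested, 1 was called, and it was higher in rods. *Lin7a*, the gene of a PDZ adaptor protein, had a normalized count of 12478 ± 802 for pan-BC and 61.5 ± 22.8 for rods (SD, n = 3; log2 difference 7.71, limma adjusted p = 3.42e-10). *Kalrn*, a guanine nucleotide exchange factor of dendritic spines, had 2513 ± 244 and 11.9 ± 5.26 (7.70, limma adjusted p = 3.18e-13). The scaffold gene *Dlgap2* ranged from 184 to 296 among pan-BC libraries, while every rod library was listed at 0. Higher in rods were *Slc6a9*, the glycine transporter GlyT1 (2271 ± 199 against 271 ± 8.16), *Lin7c* (7241 ± 1063 against 2305 ± 63.3) and *Dlg4*, which encodes PSD-95 (2576 ± 345 against 889 ± 27.4). *Slc6a9* is also 1 of the 8 amacrine markers, and it gave most of their sum of 2115 to 2448 in rods.

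Between pan-BC and blue cones, 20 of the 42 genes were higher in pan-BC and 7 in blue cones, or 64.3% called against 36.3% of all genes, with a median of 1.25 against 0.16 over all genes. Of the 7 co-agonist genes tested, 4 were higher in blue cones, and whether they differ from the other genes was not tested. *Phgdh* and *Psat1*, the enzymes at the start of serine synthesis, had 77.4 ± 19.2 and 809 ± 180 in blue cones against 1.06 ± 1.84 and 72.2 ± 9.59 in pan-BC (limma adjusted p = 2.38e-05 and 2.20e-05), and the neutral amino acid transporter gene *Slc1a4* had 181 ± 53.7 against 31.1 ± 3.99. *Neto1*, an auxiliary subunit of glutamate receptors, ranged from 166 to 185 among pan-BC libraries, while every blue cone library was listed at 0. *Lin7a* (106 ± 54.9 in blue cones) and *Dlgap2* (2.27 ± 2.28) were the other named genes higher in pan-BC.

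Between ON-BC and OFF-BC, 5 of the 42 were called (11.9%, against 6.55% of all genes), with a median log2 difference of -0.00 against -0.02 over all genes. The count was 8 with the replicate block and 8 with only the 2 populations in the fit. *Lin7a* was higher in ON-BC (16382 ± 600 against 427 ± 360, log2 difference 5.60, limma adjusted p = 9.26e-07). *Neto1* (449 ± 218 against 4.07 ± 1.84, limma adjusted p = 8.02e-08), *Ptpn5*, the tyrosine phosphatase STEP (160.5 ± 19.97 against 4.02 ± 1.91, limma adjusted p = 1.50e-05), *Ptk2b*, the tyrosine kinase Pyk2 (33.9 ± 5.39 against 1.72 ± 2.15) and *Slc6a9* were higher in OFF-BC. *Lin7a* and *Neto1*, both listed as trafficking and auxiliary genes, thus ran in opposite directions. Between rods and blue cones, 7 of the 42 genes (16.7%, against 15.9% of all genes) were higher in blue cones by limma, 8 by edgeR and 6 by DESeq2. By each of them 0 were higher in rods, and at an unadjusted p under 0.05 the number higher in rods was 0 by limma and DESeq2 and 1 by edgeR. *Camk2b*, a subunit of the kinase CaMKII, had 24413 ± 648 in blue cones and 153 ± 14.1 in rods (limma adjusted p = 2.70e-16), the scaffold gene *Shank2* had 212 ± 28.0 and 3.81 ± 1.75, and *Phgdh* had 77.4 ± 19.2 and 1.44 ± 2.50.

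The genes whose pattern over the 15 libraries was most like that of a member were found by Pearson's r of log2(normalized count + 1), among 11191 other genes with a mean of at least 100 in some population. These r are a description, since all genes share libraries and depth. *Grin1* was most like *Medag* (0.996), *Gnas*, the G protein subunit Gs alpha (0.992), and *Gm5124* (0.991). *Grin2b* was most like its neighbour *Hebp1* (0.990), then *Hddc3* (0.978) and *L3mbtl4* (0.967). *Grin2d* was most like *Nipal1*, a magnesium transporter gene (0.973), *Tet3*, an enzyme that oxidises methylcytosine (0.964), and the zinc finger gene *Zfp182* (0.962). *Nipal1* had 751 ± 91.0 in rods and at most 12.4 in any bipolar or blue cone library, whereas *Tet3* and *Zfp182* were expressed in all populations, at 4361 ± 191 and 564 ± 29.4 in rods. *Grin3a* was most like *Ano3*, a gene of the anoctamin family (0.984), *Reln*, which encodes the secreted protein reelin (0.981), and the sulfotransferase gene *Chst9* (0.979). *Reln* had 6795 ± 521 for ON-BC, 3581 ± 436 for pan-BC and 153 ± 141 for OFF-BC.

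Accessibility was measured over 110715 regions, of which 37 had their nearest start site at a subunit gene, and 36 of these were tested among 108448. The regions come from peaks of these libraries, so each was open in some library. None of the regions of *Grin2a* and *Grin3a* had a peak in any rod or cone library, so they entered the table through bipolar libraries and had to be higher there. The counts against rods and cones, and the p-values of these regions, are thus given as a description. The same holds for the *Grin2b* regions at the start site and 1, 64.9 and 119.9 kb into the gene. All of them had peaks in bipolar libraries only. The *Grin1* region, the *Grin2b* regions at 42.9 and 218.5 kb and the *Grin2c* regions at 33.7 and 33.9 kb had no peak in a rod library. They had peaks in bipolar and cone libraries, so their differences from rods are a description too. *Grin3a* had 13, *Grin2a* 8, *Grin2b* 6, *Grin2c* 5, *Grin2d* 4 and *Grin1* 1, and *Grin3b* had none. Within the genes lay 16, and the nearest start site is a rule of distance that does not show which gene a region acts on. Between pan-BC and rods, 27 of the 36 were more open in pan-BC and 1 in rods, or 77.8% called against 49.3% of all regions, with a median log2 difference of 4.75 against 1.16. Between pan-BC and cones (blue and green as 1 level), 24 were called, all more open in pan-BC, or 66.7% against 35.2%, with a median of 3.21 against 0.46. This count was 15 without pan-BC replicate 2, and 12 when regions were assigned by gene body. By library, the summed normalized count over the 37 regions was 969 to 1431 in bipolar cells, 395 and 415 in rods and 318 to 411 in cones. Between ON-BC and OFF-BC, 1 region was called, or 2.78% against 5.48%. Between rods and cones, 5 were called, or 13.9% against 9.42%.

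**Figure D4:**
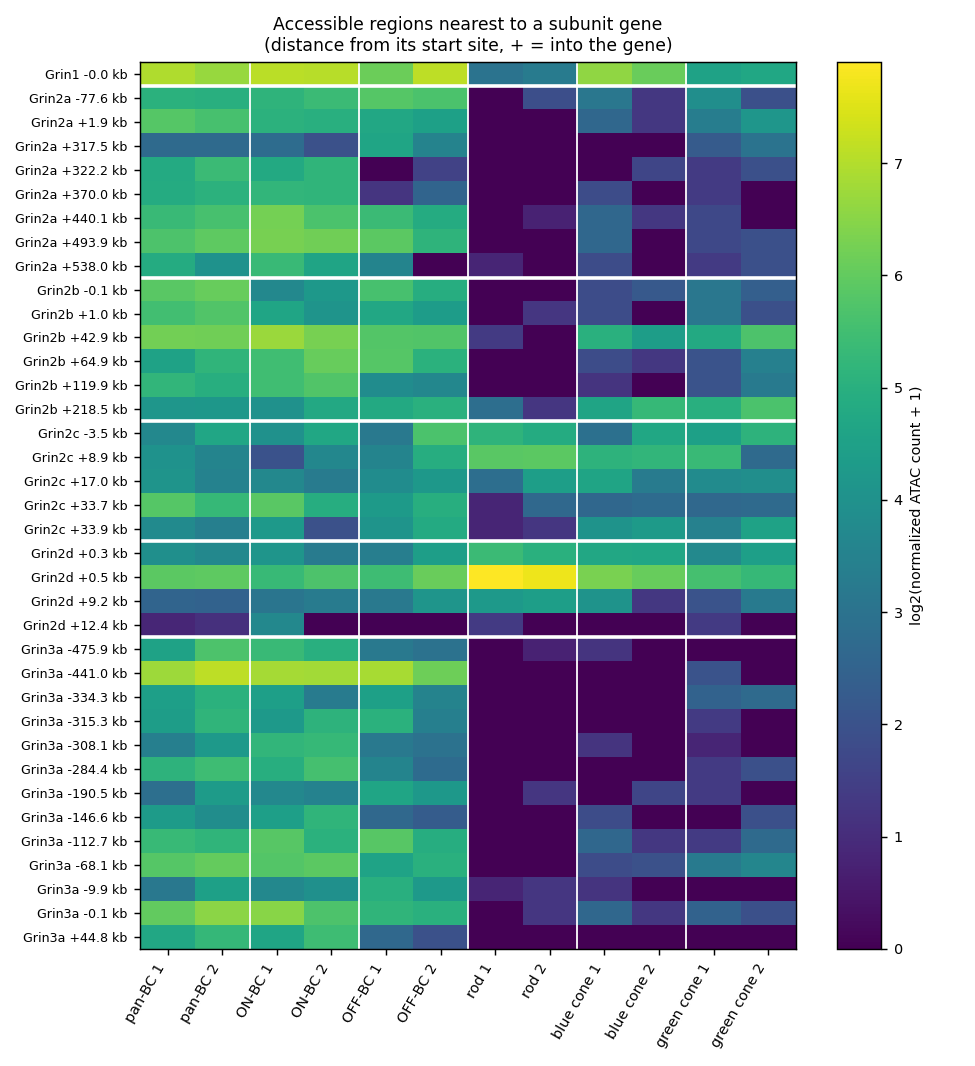
Accessibility as log2(normalized count + 1) of the 37 regions whose nearest start site belongs to a subunit gene (rows, with the distance from the start site in kb, positive into the gene) in 12 ATAC-seq libraries (columns). The regions of *Grin2a*, *Grin2b* and *Grin3a* are brighter in pan-BC than in rods, and the *Grin2d* region at 0.5 kb is brightest in rods (238 and 209 normalized counts). Some of the former are dark in OFF-BC, such as the *Grin2a* region at 322.2 kb (0 and 1.95).

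The start site of *Grin1* was open in all bipolar cells and in blue cones. Its region (chr2:25319117-25319317, across the start site) had 123 and 102 normalized counts for pan-BC, 134 and 132 for ON-BC, and 68.7 and 138 for OFF-BC. The rod libraries had 7.01 and 8.81, those of blue cones 95.8 and 67.9, and those of green cones 22.3 and 25.3. Pan-BC exceeded rods (log2 difference 3.67, standard error 0.53, limma adjusted p = 2.15e-04). Cones, with blue and green as 1 level, exceeded rods (limma adjusted p = 0.0466). The difference between pan-BC and cones did not pass (1.33, standard error 0.46, limma adjusted p = 0.447). The region had no peak in either rod library and entered the table through bipolar and cone libraries. Its p-values against rods are thus given as a description. A peak called by the authors overlapped the promoter (1000 bp upstream to 100 bp downstream) in 9 of 14 libraries, in all 6 bipolar and both blue cone libraries and in 1 green cone library, with a fold enrichment of 12.1 to 19.4 in bipolar cells. As for *Grin1* RNA, both blue cone libraries lay above both rod libraries.

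The promoter of *Grin2b* was more open in pan-BC than in photoreceptors, and its levels in ON-BC were low. The region at the start site (chr6:136173570-136173770) had 57.6 and 65.6 normalized counts for pan-BC, 11.9 and 17.6 for ON-BC, and 47.1 and 29.2 for OFF-BC. Rods were listed at 0 in both libraries, and cones had 2.59 to 7.68. Pan-BC exceeded rods (log2 difference 5.96, standard error 0.66, limma adjusted p = 5.38e-06) and cones (3.58, standard error 0.57, limma adjusted p = 0.00102). The OFF-BC values exceeded the ON-BC values, but the difference did not pass the test (-1.30, standard error 0.66, adjusted p = 1). The authors called a peak at this promoter in both pan-BC and both OFF-BC libraries (fold enrichment 4.49 to 9.56) and in none of the ON-BC, rod or cone libraries.

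Regions inside *Grin2b* differed among themselves in their ON-BC levels. The intronic region printed above, 42.9 kb into the gene, had 73.6 and 71.8 for pan-BC, 105 and 76.1 for ON-BC, 53.9 and 52.6 for OFF-BC, 20.2 to 50.7 for cones, and 1.56 and 0 for rods. It was more open in pan-BC than in rods (log2 difference 5.53, limma adjusted p = 6.71e-07) and in cones than in rods (log2 difference of rods against cones -4.30, standard error 0.43, limma adjusted p = 1.81e-05). It had peaks in bipolar and cone libraries and in no rod library, so these p-values are given as a description. The region 1.0 kb into the gene (chr6:136172422-136172622) had 44.8 and 53.6 for pan-BC, 23.9 and 16.1 for ON-BC, and 25.6 and 19.5 for OFF-BC. It was the one with the largest difference between pan-BC and cones (3.92, standard error 0.74, limma adjusted p = 0.00259). This is a description, since the region had peaks in bipolar libraries only and so had to be higher there. When regions were assigned by the gene body with 5000 bp on either side, *Grin2b* had 13, of which 9 were more open in pan-BC than in rods. That count, too, is given as a description. Of the 6 regions assigned by the nearest start site, 0 were called between the subclasses by limma, edgeR or DESeq2, and 0 reached an unadjusted p under 0.05 by any of them.

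*Grin2a*, listed at 0 in the RNA, lay among regions that were open in bipolar cells. Of its 8 regions, which had peaks in bipolar libraries only, 7 were called as more open in pan-BC than in rods and 6 more than in cones. Over all 8, the summed normalized count was 267 and 282 for pan-BC, 327 and 290 for ON-BC, 217 and 151 for OFF-BC, 0.779 and 3.39 for rods and 6.50 to 36.1 for cones. The region 1.9 kb into the gene (chr16:9993793-9993993) was the nearest to its start site, with 56.0 and 47.9 in pan-BC and 0 in both rod libraries (log2 difference 5.72, limma adjusted p = 3.54e-05). The promoter itself had no peak in any of the 14 libraries. The largest difference from rods was that of a region past the end of the gene (chr16:9501775-9501975), with 50.4 and 60.4 in pan-BC and 0 in both rod libraries (5.81, standard error 0.76, limma adjusted p = 2.67e-05), and it was also the largest against cones (4.24, limma adjusted p = 4.77e-04).

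A single region was called between the subclasses, the intronic *Grin2a* region printed above, 322.2 kb into the gene. It had 26.9 and 35.1 normalized counts for ON-BC, 0 and 1.95 for OFF-BC, 27.2 and 41.1 for pan-BC, and at most 2.82 for photoreceptors. The log2 difference was 4.21 (standard error 0.85, limma adjusted p = 0.0193). The region had peaks in both pan-BC and both ON-BC libraries and in no OFF-BC library. It thus entered the comparison through libraries where it was high, and its p-value is given as a description. The call was lost when either ON-BC library was left out and with DESeq2. At 317.5 kb into the gene, another region was higher in both OFF-BC libraries (24.2 and 10.7) than in ON-BC (5.97 and 2.93), which did not pass the test (-1.72, standard error 0.99, adjusted p = 0.919).

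All 13 regions of *Grin3a* were called as more open in pan-BC than in rods and than in cones, which the choice of regions by bipolar peaks favours. The region at its start site (chr4:49845744-49845944) had 63.2 and 91.8 normalized counts for pan-BC, 89.6 and 51.2 for ON-BC, 35.0 and 31.2 for OFF-BC, at most 1.36 for rods and 5.18 for cones. Both ON-BC libraries lay above both OFF-BC libraries, but the difference did not pass the test (1.02, standard error 0.66, adjusted p = 1). Unlike its RNA, then, the promoter was open in OFF-BC, where the authors called peaks in both libraries (fold enrichment 5.37 and 7.61), as in both ON-BC (7.20 and 11.2) and both pan-BC libraries. The region with the largest differences lay upstream, between genes, and is printed above. It had 106 and 139 for pan-BC, 113 and 111 for ON-BC and 116 and 71.1 for OFF-BC, was listed at 0 in rods and blue cones, and had at most 3.07 in green cones (6.93 against rods, standard error 0.72, limma adjusted p = 1.97e-06, and 6.43 against cones, limma adjusted p = 5.34e-06). No *Grin3a* region was called between ON-BC and OFF-BC by limma, edgeR or DESeq2, and at an unadjusted p under 0.05 limma and DESeq2 gave 1 each and edgeR gave 3, all higher in ON-BC.

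*Grin2d* was the gene whose accessibility was highest in rods. The region 0.5 kb into the gene (chr7:45866055-45866255, overlapping an exon) had 238 and 209 normalized counts for rods, 59.2 and 60.4 for pan-BC, 38.8 to 67.2 for the subclasses, 77.7 and 66.5 for blue cones and 46.1 and 38.0 for green cones. Every rod library lay above every other library. Rods exceeded pan-BC (log2 difference of pan-BC against rods -1.88, standard error 0.34, limma adjusted p = 0.0210) and cones (2.01, standard error 0.30, limma adjusted p = 0.0217). The fold was thus smaller than in the RNA, and the region was open in populations with few *Grin2d* reads. The promoter window itself had no peak in any library.

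*Grin2c* had no promoter peak, and 4 of its 5 regions were not called between pan-BC and rods or cones. Among these, the region 8.9 kb into the gene (chr11:115258256-115258456) had 58.4 and 59.6 normalized counts for rods and 15.2 and 10.8 for pan-BC, a difference that did not pass the test (-2.12, standard error 0.77, limma adjusted p = 0.144), and the authors called peaks there in both rod libraries (fold enrichment 16.2 and 14.7). The region 33.7 kb past its start site (chr11:115233487-115233687), inside the gene *Tmem104*, was more open in pan-BC (56.0 and 38.2) than in rods (0.779 and 5.42) and cones (5.18 to 5.78), with limma adjusted p = 8.32e-04 and 0.00809. Its neighbour at 33.9 kb (chr11:115233237-115233437) was more open in cones than in rods (limma adjusted p = 0.0308). Both regions had peaks in every bipolar library and in no rod library. Among cones, both had a peak in replicate 3 of green cones, which was sorted a second time, and the neighbour also in blue cone replicate 2. The p-values of these regions are thus given as a description.

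**Figure D5:**
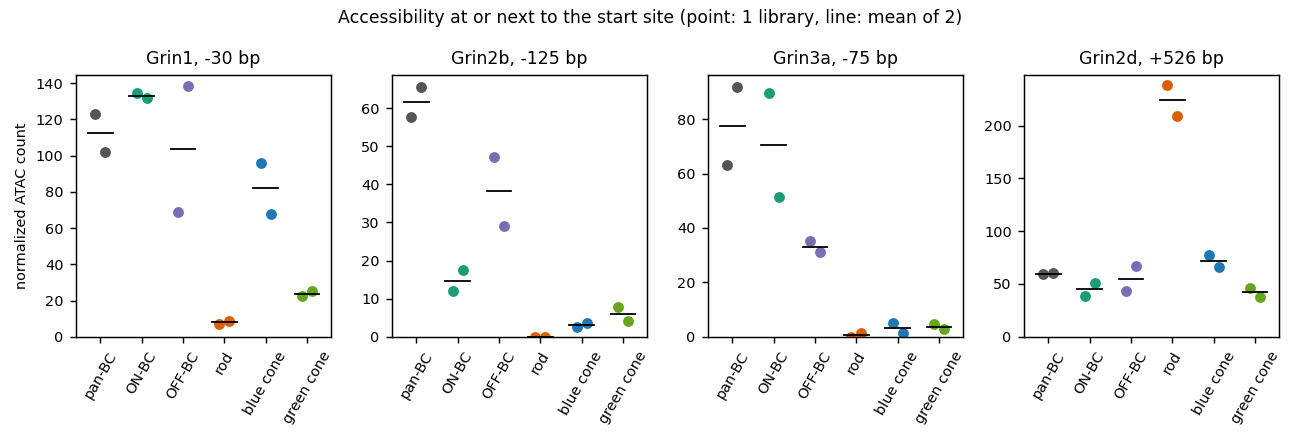
Normalized ATAC-seq count of the region at the start site of *Grin1*, *Grin2b* and *Grin3a* and of the *Grin2d* region 0.5 kb into the gene, by population; points are libraries and lines are means of 2. *Grin2b* is lower in ON-BC (11.9 and 17.6) than in pan-BC and OFF-BC, *Grin3a* is open in all bipolar cells, and *Grin2d* is highest in rods.

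Of the words searched, those given here are TAATCC, bound by K50 homeodomain factors such as CRX and OTX2, CANNTG, the E-box, and GGGCGG, the GC box. Both strands were read, and CANNTG reads the same on each. TAATCC was in 4 of the 37 regions (10.8%) and in 21.8% of all regions of this length. CANNTG was in 25 (67.6%, against 68.9%) and GGGCGG in 6 (16.2%, against 17.0%). In the 250 bases before the start site, *Grin1* had 4 E-box matches, *Grin3b* 2, *Grin2d* 1 and *Grin2c* none, against a match in 66.2% of 32851 promoters, and *Grin2c* had 3 GC boxes, which 32.7% of promoters hold. TAATCC was in none of these 4 promoters, and 6.25% of all promoters hold it. A match is a string of letters and was not tested as a binding site.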

How the data were processed

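Gene expression was measured by RNA-seq in 15 libraries (3 per population) and accessibility by ATAC-seq in 12 libraries (2 per population) of sorted mouse retinal cells. Per the submitters' processing notes the tools were STAR 2.7.0d, HTSeq 1.9, Bowtie2 2.2.5, SAMtools 1.3, Picard 2.19.0, MACS2 2.1.1, HOMER 4.8, bedtools 2.24.0 and featureCounts. The authors aligned reads to GRCm38 and deposited signal values, which are counts per gene or per region divided by 1 size factor per library. All 230384 RNA and 1212862 ATAC values above 0 were whole multiples, within 0.01, of 1 step per library, by which reads were recovered. For the peaks of 14 libraries, called per library, the authors deposited fold enrichment, a ratio over local background, and the −log10 of the q value.

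Genes and regions kept by filterByExpr were tested with limma 3.58.1 (treat, trended prior) on log2(normalized count + 1) against a log2 fold change of 1, with Benjamini-Hochberg adjustment over all features and a limit of 0.05, in R 4.3.3. All libraries of an assay formed 1 model. The added 1 understates changes of low genes. Alternatives were edgeR 4.0.16 (glmTreat) and DESeq2 1.42.0 on recovered reads, beside other scalings, pseudocounts, filters, library subsets and a replicate block. The fits were tested on simulated data.

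Regions went to the nearest start site of 45755 RefSeq transcripts. Named were all members, the 3 called pathway genes with the largest differences in each direction, the 3 genes most like each member, regions in promoters and the called region with the largest difference in each direction. The members and lists were chosen with earlier results of these data known. The study calls its replicates biological. Intervals and floors cover counting error only. Replicate numbers were not taken as pairs of ON-BC and OFF-BC libraries, and whether libraries of the same number shared mice was not settled. The horizontal cell marker *Sept4* was not found by name. The double-sorted green cones have peaks only. No protein sequence was used here. Some of the words searched in the sequences are not reported here.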

Additional observations from a re-analysis of the deposited data

Results flagged for a closer look

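The libraries of double-sorted green cones, replicates 3 and 4, were used in no comparison because the region table has no column for them. In replicate 3, peaks overlapped the *Grin2b* regions 218.5 kb and 42.9 kb into the gene, with a fold enrichment of 8.33 and 9.52. Peaks there also overlapped the *Grin2c* regions at 33.7 kb and 33.9 kb (3.27 for both) and the *Grin2d* region at 0.5 kb (4.91). In replicate 4, peaks overlapped the *Grin2c* region at 8.9 kb (4.15) and the *Grin2d* region at 12.4 kb (4.79). No region had a peak in both libraries, and the fold enrichment has no replicate error.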

How the results depend on the processing

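Of the counts of called genes or regions recomputed under another setting, 156 stayed within 1.5 times and 16 did not. The called subunit genes between ON-BC and OFF-BC rose from 1 to 2 without ON-BC replicate 3 and OFF-BC replicate 1, a setting chosen after seeing the data (leave-one-out range 1 to 2, with 2 without ON-BC replicate 3). The pathway genes called there rose from 5 to 8 with only the 2 populations compared, and to 8 with the replicate block. Regions called between pan-BC and cones fell from 24 to 12 when assigned by gene body, and leaving out 1 library gave 15 to 25, with 15 without pan-BC replicate 2. Regions called between ON-BC and OFF-BC numbered 1, against 0 by DESeq2 (3 at an unadjusted p under 0.05), 2 with pseudocount 4, 2 with the replicate block and 0 to 1 when 1 library was left out. Regions called between rods and cones numbered 5, against 10 by edgeR, 3 with pseudocount 4, and 1 to 5 leaving out 1 library, with 1 without rod replicate 2, 2 without rod replicate 1 and 3 without green cone replicate 2. The cause was not tested. The log2 difference of *Grin2d* between ON-BC and OFF-BC, 0.18, turned to -0.49 without OFF-BC replicate 3 and -0.12 without ON-BC replicate 1, and was 0.73 without both ON-BC replicate 3 and OFF-BC replicate 1. *Grin3b* was called between pan-BC and rods by edgeR (1.76), with library totals (2.09) and with the 2 populations alone (1.77), and lost its call against blue cones without blue cone replicate 3 (1.83). *Grin2b* lost its calls against rods and blue cones with DESeq2 (12.6 and 14.0). Scaling to library totals moved the median of all genes by 0.34 and 0.28 against rods and blue cones, and that of all regions between ON-BC and OFF-BC by -0.29, and turned no direction of a member. ON-BC and OFF-BC libraries of 1 number shared the age of their mice (43, 48 and 42 days), but their deviations correlated at -0.08, 0.22 and -0.06 across genes, so the numbers were not taken as pairs. Only replicate 2 correlated best with its own number, while ON-BC replicate 3 and OFF-BC replicate 1, the high libraries of *Grin2b*, correlated at 0.21, and ON-BC replicate 1 and OFF-BC replicate 3 at 0.14. The blocked fit changed no other call count beyond 1.5 times. With 2 ATAC-seq libraries per population, differences near the limit of 1 could not be called.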
